A study of Mus musculus with 10 samples.

Results

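The odorant receptor (OR) genes numbered Olfr164 to Olfr209 lie on mouse chromosome 16, and their level was compared between H2be-GF and wild-type (WT) olfactory epithelium. Probe sets were taken as members when the platform annotation gave them a single gene symbol, Olfr followed by a number, in the range from Olfr164 to Olfr209. Of the 46 numbers in this range, 31 had such a probe set, 1 per gene, among 1034 OR probe sets with 1 symbol on the array. A RefSeq gene table placed all 31 genes on chromosome 16. They lay there in separate runs, a proximal one of 7 genes (Olfr164 to Olfr171) and a distal one of 24 (Olfr172 to Olfr206), with 642 other genes of the table between them.

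ORs are G protein-coupled receptors that detect odorants at the cilia of olfactory sensory neurons. Each mature neuron expresses one receptor allele out of the whole repertoire, so that the RNA level of a receptor in whole tissue follows both the number of neurons that chose it and the amount of RNA in each of them. In bulk tissue, fewer cells of a type and less RNA per cell cannot be told apart. Receptor genes lie in clusters in which neighbours often belong to the same sequence family, named MOR in mouse.

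Mice aged 5 weeks were used, and their whole olfactory epithelium (MOE) was profiled on 4 H2be-GF and 6 WT arrays, each made from a pool of animals that was larger for H2be-GF than for WT. H2be-GF mice carry a transgene that replaces the coding sequence of olfactory marker protein (Omp) with FLAG-tagged H2BE, a histone H2B variant of olfactory neurons, and thus drives it from the Omp promoter in mature neurons. The line came from a single founder crossed to C57Bl/6, holds several transgene copies, and leaves a band of neurons near zone 2 of the epithelium without the transgene product. Both sexes were used according to the series, but the sex of the animals in a given pool is not stated in the sources used here.

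Values are log2 signals, on which a difference of 1 is a doubling. Across the tested probe sets, any 2 arrays had a correlation of 0.969 to 0.988. Xist, the transcript of the inactive X chromosome, was high (11.69 or above) on H2be-GF replicates 1 and 2 and WT replicates 1 to 3. It was low (4.61 or below) on the other 5 arrays. Eif2s3y, a gene of the Y chromosome, measured 0 on every array high in Xist and 10.47 to 10.79 on the others. Comparisons are also given within each of these sets. Omp measured 12.75 to 12.81 on H2be-GF arrays and 12.83 to 12.96 on WT arrays. The gene of H2BE itself, Hist2h2be, measured 11.76 to 11.92 on H2be-GF arrays, below all WT arrays, which measured 12 to 12.13. Since it is not known whether its probes lie in the part that the transgene holds, it checks no label. Over 10 marker genes of mature olfactory neurons the array mean was 11.67 to 11.71 in H2be-GF and 11.73 to 11.77 in WT, where 1 marker was higher and 3 were lower at an unadjusted p below 0.05 (8.43% of all probe sets tested passed that limit in either direction) and none was called. The part of this difference in the receptor levels was not tested.

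Olfr183 was the only member that passed the test between H2be-GF and WT mice, and its level fell in H2be-GF. For the other members no difference passed the test, which does not show that their levels were the same. A call means an adjusted p under 0.05 in limma, a linear model with moderated variances fitted over 23194 probe sets, with Benjamini-Hochberg adjustment over the 748 receptor probe sets with a mean above 7. Of the members, 27 had a mean above 7, and among these 1 was called lower and 0 higher. Over all 748 receptors 5.88% were called lower and 4.01% higher, so that the members' share of lower calls was near that of receptors in general. Adjusted over all probe sets tested, no member was called, against 0.0862% of all probe sets. At an unadjusted p below 0.05, 2 members were higher and 1 was lower. This was 11.1% of the 27 members with a mean above 7, against 23.0% of the 748 receptors and 8.43% of all probe sets tested. Groups of arrays did not overlap for 1 member, which was lower, and for 0 members that were higher, against 5.48% and 4.01% of the 748 receptors.

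Olfr183 lies in the distal run and belongs to family MOR183. Its level was 8.14, 7.92, 8.41 and 8.24 on H2be-GF replicates 1 to 4, and 8.59, 8.62, 8.66, 8.62, 8.88 and 9.10 on WT replicates 1 to 6. Every H2be-GF array lay below every WT array, and H2be-GF replicate 2 was the lowest of all. The H2be-GF mean was 8.18 ± 0.20 (SD, n = 4) and the WT mean 8.74 ± 0.20 (SD, n = 6), a log2 change of -0.57 (SE 0.12, 95% interval -0.83 to -0.30), or 0.676-fold. Its adjusted p in limma was 0.0132 over receptors and 0.183 over all probe sets. Without H2be-GF replicate 2 the change was -0.48 and the adjusted p 0.0522. Among arrays high in Xist it was -0.59 and among those low in Xist -0.54, and it did not pass the test in either set alone (adjusted p in limma of 0.155 and 0.292), each of which holds 2 H2be-GF arrays.

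**Figure D1:**
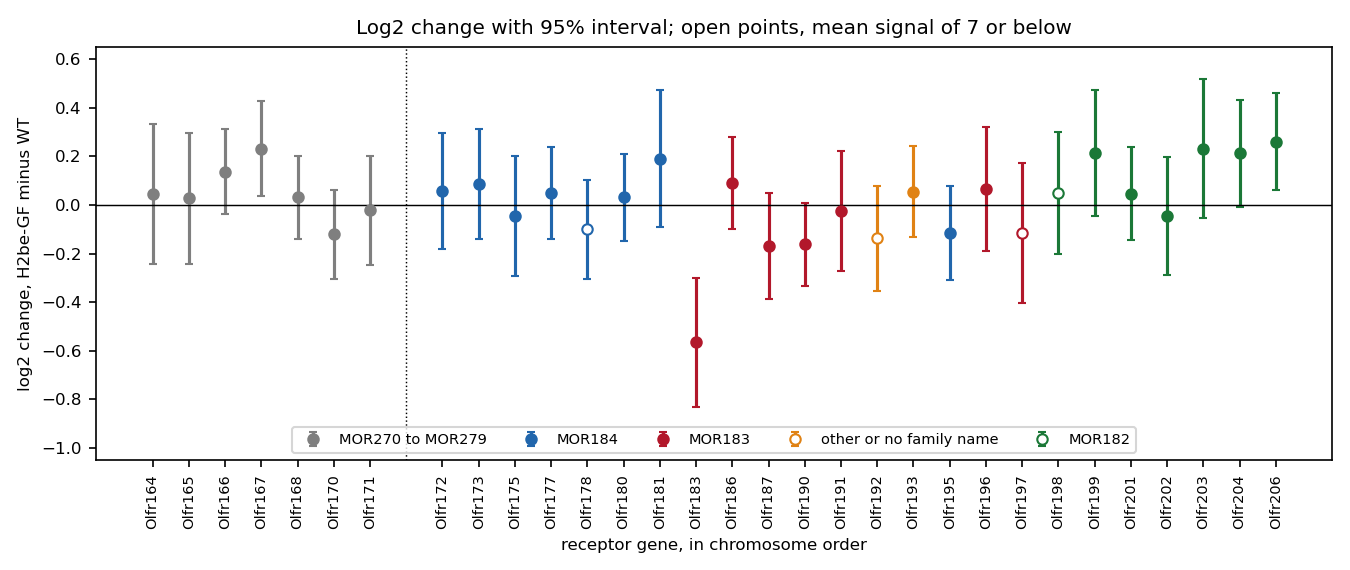
Log2 change (H2be-GF minus WT) of each of the 31 receptor genes in chromosome order, with 95% intervals from limma; colours mark MOR families, open points have a mean signal of 7 or below, and the dotted line separates the proximal and the distal run. Olfr183 stands at -0.57, and 3 of the intervals leave out 0.

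The genes on either side of Olfr183 in the table that have a probe set of their own are Olfr181 and Olfr186. Olfr181, of family MOR184, measured 7.52, 7.52, 7.16 and 7.13 on the H2be-GF arrays, and between 6.80 and 7.49 with a median of 7.13 on the WT arrays. Olfr186, of family MOR183, measured 9.12, 9.16, 9.11 and 9.01 on the H2be-GF arrays, and between 8.83 and 9.21 with a median of 9.01 on the WT arrays. Both genes overlapped between genotypes, and their log2 changes were 0.19 (SE 0.13) and 0.09 (SE 0.09). The change of Olfr183 differed from that of Olfr181 by -0.76 (two-sided exact permutation test, 210 splits, p = 0.0238) and from that of Olfr186 by -0.66 (exact permutation test, p = 0.0143), with p adjusted over both comparisons of 0.0238 each. These comparisons were chosen because Olfr183 had changed on the same arrays and are no independent support for its change. Without H2be-GF replicate 1 or 2 the exact p of the first was 0.0714 (differences of -0.68 and -0.61).

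The RefSeq promoter table (GRCm38.p6) held 22 of the 31 genes, and Olfr183 is 1 of 2 among these on the plus strand, the other being Olfr203. The 250 bases before the annotated start are shown for Olfr183, for its neighbour Olfr181 and for Olfr206, the member with the largest positive change. They cover chr16:58995154-58995403 (plus strand), chr16:58928645-58928894 (minus strand) and chr16:59345727-59345976 (minus strand), and capitals mark a match to TAATNA.
Olfr183: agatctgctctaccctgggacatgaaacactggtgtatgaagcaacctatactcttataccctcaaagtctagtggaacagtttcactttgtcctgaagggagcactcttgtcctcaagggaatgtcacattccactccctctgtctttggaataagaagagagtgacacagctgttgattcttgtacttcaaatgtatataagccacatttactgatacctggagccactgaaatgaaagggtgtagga
Olfr181: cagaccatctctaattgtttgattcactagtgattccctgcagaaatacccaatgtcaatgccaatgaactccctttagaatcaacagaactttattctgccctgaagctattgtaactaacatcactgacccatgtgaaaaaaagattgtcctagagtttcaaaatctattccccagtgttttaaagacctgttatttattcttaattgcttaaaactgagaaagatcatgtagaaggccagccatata
Olfr206: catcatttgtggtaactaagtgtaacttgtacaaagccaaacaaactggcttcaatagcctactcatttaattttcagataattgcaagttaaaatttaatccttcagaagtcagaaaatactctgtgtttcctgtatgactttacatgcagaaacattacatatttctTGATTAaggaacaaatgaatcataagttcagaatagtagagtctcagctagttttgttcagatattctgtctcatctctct
Motifs were searched on both strands in the 300 bases from 250 before to 50 after the start. CCCNNGGG, a core of the sites of EBF factors, was found in 0 of 22 member windows, against 3.08% of 943 receptor windows and 13.4% of all 27025 windows. TAATNA, a core of homeodomain sites such as those of LHX2, was found in 12 of 22 member windows (54.5%), against 65.9% of receptor windows and 26.8% of all windows. TAATTA, which is contained in TAATNA, was found in 3 member windows (13.6%), those of Olfr172, Olfr196 and Olfr198, against 18.7% and 5.31%. Neither Olfr183 nor Olfr181 held a match to any of the motifs. In 12 of the 22 windows the annotated start is an ATG, so that these gene models may begin at the coding sequence and the window may not hold the transcription start.

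The other 6 members of family MOR183 showed no call. Olfr187 measured 7.61, 7.61, 7.36 and 7.33 on the H2be-GF arrays, and between 7.50 and 7.88 with a median of 7.58 on the WT arrays, a change of -0.17 (SE 0.10). Olfr190 measured 7.84, 7.68, 7.50 and 7.58 on the H2be-GF arrays, and between 7.69 and 7.95 with a median of 7.81 on the WT arrays, a change of -0.16 (SE 0.08, adjusted p in limma of 0.246 over receptors). In both genes H2be-GF replicates 3 and 4 were the low ones, while replicates 1 and 2 lay within the WT range for Olfr187 and replicate 1 did for Olfr190. The change of Olfr190 was -0.01 with high Xist and -0.32 with low Xist, a difference between the sets that did not pass the test (interaction adjusted p in limma of 0.997). Olfr191 had a change of -0.02 (SE 0.11), Olfr186 of 0.09 (SE 0.09) and Olfr196 of 0.06 (SE 0.12). Over the 7 members counted in the family, Olfr183 included, the median change was -0.12, with 5 lower and 2 higher. That median is the change of the family's pseudogene Olfr197 (mean 6.71), which was lower at -0.12 (SE 0.13). Olfr193, which has names in both MOR113 and MOR183, was not counted here and was higher at 0.05 (SE 0.09).

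Family MOR182, which fills the distal end of the distal run, had more members higher than lower, but none of its members was called. Olfr206, the last member in gene order, measured 8.49, 8.56, 8.30 and 8.58 on the H2be-GF arrays, and between 8.04 and 8.48 with a median of 8.22 on the WT arrays. H2be-GF replicates 1, 2 and 4 lay above every WT array, while H2be-GF replicate 3 lay below WT replicate 2. The H2be-GF mean was 8.48 ± 0.13 (SD, n = 4) and the WT mean 8.22 ± 0.15 (SD, n = 6), a change of 0.26 (SE 0.09, 95% interval 0.06 to 0.46), with an adjusted p in limma of 0.103. Without WT replicate 2, the highest of its genotype, the change was 0.31 and the adjusted p 0.0333.

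Olfr204 measured 8.24, 8.65, 8.35 and 8.28 on the H2be-GF arrays, and between 7.97 and 8.42 with a median of 8.15 on the WT arrays. Only WT replicate 2 lay above the lowest H2be-GF array. Its change was 0.21 (SE 0.10, adjusted p in limma of 0.233), and 0.12 without H2be-GF replicate 2. Olfr203 measured 7.49, 7.09, 7.11 and 6.90 on the H2be-GF arrays, and between 6.67 and 7.28 with a median of 6.86 on the WT arrays, a change of 0.23 (SE 0.13) that was 0.12 without H2be-GF replicate 1. Olfr199 measured 8.04, 8.04, 7.72 and 7.62 on the H2be-GF arrays, and between 7.44 and 7.94 with a median of 7.65 on the WT arrays, a change of 0.21 (SE 0.12). In both of these genes the groups overlapped, and the high H2be-GF arrays were replicate 1 for Olfr203 and replicates 1 and 2 for Olfr199. The change of Olfr199 was 0.34 with high Xist and 0.09 with low Xist.

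The remaining members of MOR182 were nearer to 0. Olfr202 measured 9.33, 9.38, 9.43 and 9.41 on the H2be-GF arrays, and between 9.13 and 9.70 with a median of 9.42 on the WT arrays. The H2be-GF arrays lay inside the WT range, and the change was -0.05 (SE 0.11), with -0.20 for high Xist and 0.11 for low Xist. Olfr201 and Olfr198 had a log2 difference of 0.05 each (SE 0.09 and 0.11), Olfr198 at a mean of 6.84, below the limit of 7. The median over the 7 members was 0.21, with 6 higher and 1 lower.

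A further 3 probe sets carry the symbols of several MOR182 genes and name no single one. Their log2 changes were 0.33 (SE 0.09), 0.20 (SE 0.12) and 0.13 (SE 0.08). On the first of these, annotated to Olfr204, Olfr205 and Olfr206 together, every H2be-GF array lay above every WT array. Of the 748 receptors, 4.01% did so. Its p in limma was 0.0047 unadjusted and 0.351 adjusted over all probe sets. With several symbols it was outside the 748 receptors, and whether it passes an adjustment over receptors was not tested. A probe set annotated to Olfr169, Olfr170 and Olfr171 of family MOR273 had a log2 difference of -0.04 (SE 0.08). Genes of a family are close in sequence, so that probe sets for a single gene may also read its relatives.

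**Figure D2:**
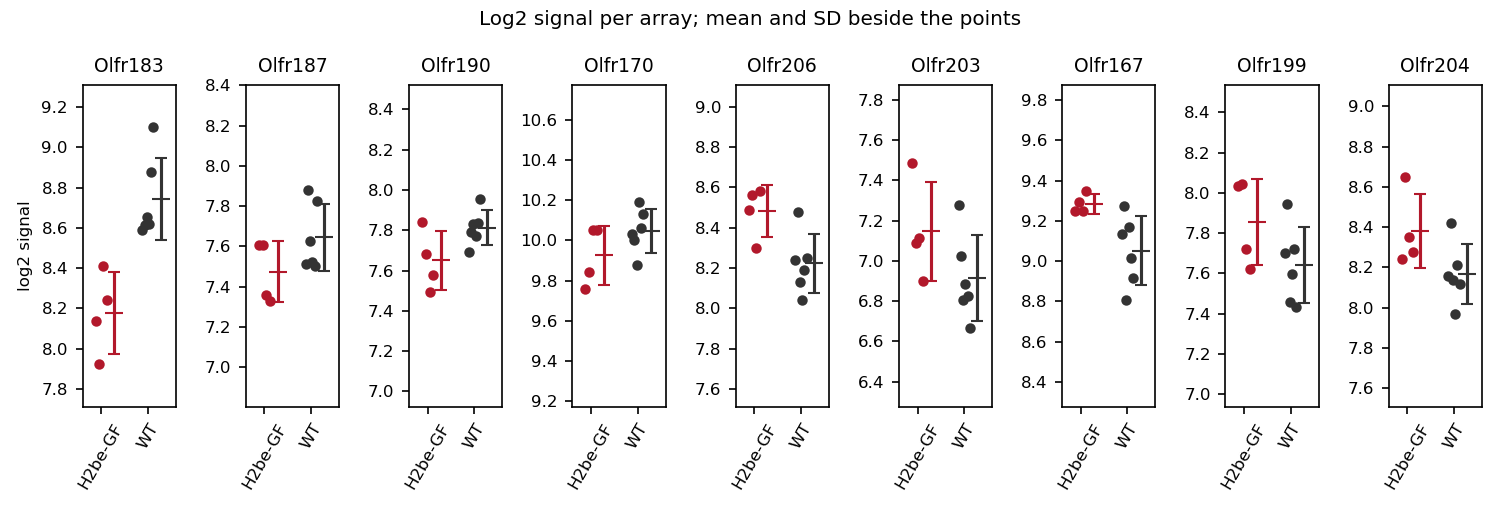
Log2 signal on each H2be-GF (red) and WT (dark) array for 9 receptor genes of the range, with bars for the mean and SD of a genotype to the right of its points; every panel covers an equal span. Genotypes do not overlap for Olfr183 and overlap for the other genes shown.

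The 8 members of family MOR184 had a median change of 0.04, with 5 higher and 3 lower, between -0.12 and 0.19. None reached an unadjusted p below 0.05. Olfr195 measured 8.82, 9.01, 8.94 and 8.83 on the H2be-GF arrays, and between 8.88 and 9.30 with a median of 8.98 on the WT arrays, a change of -0.12 (SE 0.09). The H2be-GF replicates 1 and 4 lay below every WT array and the other two within the WT range. Olfr178, whose mean of 5.46 was near the lower filter of 5, measured 5.36 to 5.42 on the H2be-GF arrays and 5.21 to 5.66 on the WT arrays, a change of -0.10 (SE 0.09). Olfr193, which has names in both MOR113 and MOR183, had a log2 difference of 0.05 (SE 0.09). The pseudogene Olfr192, with no family name and a mean of 6.61, had a difference of -0.14 (SE 0.10).

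In the proximal run, whose 7 genes belong to families MOR270 to MOR279, the median change was 0.03, with 5 higher and 2 lower and none called. Olfr167 measured 9.25, 9.29, 9.25 and 9.35 on the H2be-GF arrays, and between 8.81 and 9.27 with a median of 9.08 on the WT arrays. Only WT replicate 2 reached into the H2be-GF range. The H2be-GF mean was 9.28 ± 0.05 (SD, n = 4) and the WT mean 9.05 ± 0.17 (SD, n = 6), a change of 0.23 (SE 0.09, 95% interval 0.03 to 0.43), with an adjusted p in limma of 0.144. It was 0.20 with high Xist and 0.26 with low Xist.

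Olfr166 measured 10.05, 10.33, 10.27 and 10.34 on the H2be-GF arrays, and between 9.95 and 10.22 with a median of 10.14 on the WT arrays, a change of 0.14 (SE 0.08). Olfr168 measured 10.07, 10.28, 10.26 and 10.35 on the H2be-GF arrays, and between 10.08 and 10.32 with a median of 10.21 on the WT arrays, a change of 0.03 (SE 0.08). Olfr170 measured 9.76, 9.84, 10.05 and 10.05 on the H2be-GF arrays, and between 9.88 and 10.19 with a median of 10.04 on the WT arrays, a change of -0.12 (SE 0.08). In all of these genes H2be-GF replicate 1 was the lowest of its genotype, and the groups overlapped. Olfr164, the first member in gene order, had a difference of 0.04 (SE 0.13), with values of 6.75 to 7.32 on the H2be-GF arrays and 6.66 to 7.26 on the WT arrays.

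As a group, the 27 members with a mean above 7 had a median change of 0.05, with 18 higher and 9 lower, beside a median of 0.02 over all 748 receptors and 0.01 over all probe sets tested. Leaving out 1 array moved this median between 0.02 (without WT replicate 3, with 17 higher and 10 lower) and 0.08 (without WT replicate 2, with 20 higher and 7 lower). The changes had an SD of 0.17 over these members and 0.19 over all receptors. An unadjusted p under 0.05 was reached by 11.1% of the members, against 23.0% of the receptors and 8.43% of all probe sets tested. For the 30 members other than Olfr183, the 95% intervals ran from -0.40 at the lowest to 0.52 at the highest, so that changes of up to these sizes were not excluded for single genes. The 4 members with a mean of 7 or below had changes between -0.14 and 0.05.

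**Figure D3:**
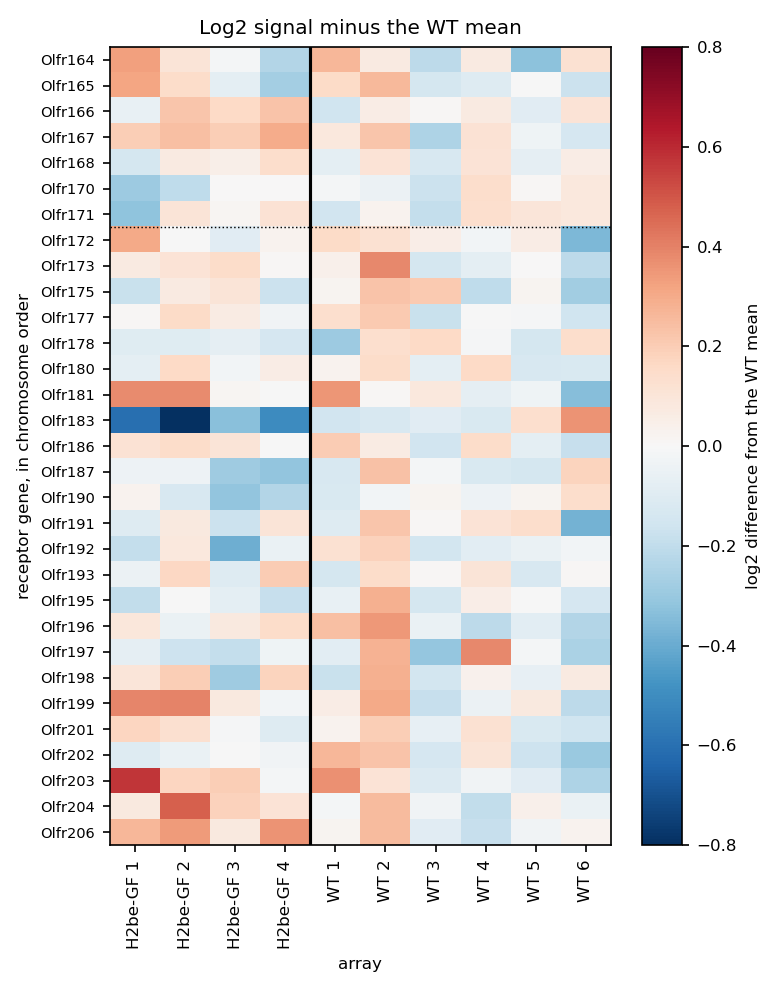
Log2 signal of the 31 receptor genes on each of the 4 H2be-GF and 6 WT arrays, as the difference from the gene's WT mean, in chromosome order; the solid line separates the genotypes and the dotted line the proximal from the distal run. Olfr183 is below its WT mean on all 4 H2be-GF arrays, and WT replicate 2 is above it for most genes.

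The mean over the 27 members ran from 8.33 to 8.43 on the H2be-GF arrays and from 8.25 to 8.50 on the WT arrays. Single arrays contributed unequally to the spread. WT replicate 2 was the highest of the WT arrays for 14 of the 27 genes and WT replicate 6 the lowest for 12. In H2be-GF, replicate 4 was the lowest for 10 genes and the highest for 8, and replicate 2 was the lowest for 2.

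Deviations of an array from its genotype mean were correlated between genes as a description of this spread, over 10 arrays that share their normalization. The median r was 0.24 over all 351 pairs of members with a mean above 7, 0.46 over the 25 pairs of neighbours in gene order, 0.39 over the 53 pairs of a family, and 0.14 over the 140 pairs from different runs. Pairs of receptors outside the range had a median r of 0.30. In the proximal run Olfr168 went with Olfr171 (r = 0.84) and Olfr166 (r = 0.83), and the highest r of all, 0.93, joined Olfr165 and Olfr199 of different runs. Olfr183 had an r of -0.80 with Olfr181, -0.63 with Olfr186, and -0.52 with the mean of the receptors outside the range. Negative values were not particular to it, though its r with that mean was the lowest among the members. Of all pairs of members, the lowest r, -0.805, joined Olfr166 and Olfr203. Olfr166 and Olfr171 each had an r of -0.34 with the mean of the receptors outside the range. For Olfr201, by contrast, the r with that mean was 0.92.

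**Figure D4:**
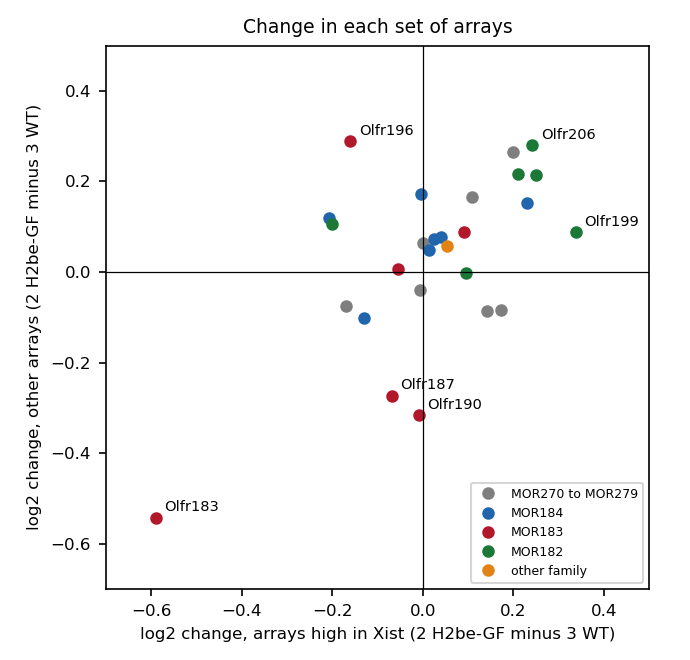
Log2 change of the 27 receptor genes with a mean above 7 for high-Xist arrays (horizontal) and low-Xist arrays (vertical), each 2 H2be-GF minus 3 WT, coloured by MOR family. Olfr183 is at -0.59 and -0.54, and 12 genes are higher and 6 lower in both sets.

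The genotype difference was compared between high-Xist and low-Xist arrays with an interaction term in limma. It was called for 0 of the 748 receptors after adjustment, and 1 member, Olfr196, had an unadjusted interaction p below 0.05. Its change was -0.16 with high Xist and 0.29 with low Xist (interaction adjusted p in limma of 0.997). Of the 27 members 12 were higher and 6 lower in both sets.

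Among listed genes that act in the choice, expression and use of receptors, Lhx2 alone passed the test. Of 15 genes of receptor gene choice and expression 1 was called over all probe sets, against 0.0862% of all probe sets tested. At an unadjusted p below 0.05, 3 of the 15 were higher and 0 lower, a limit that 8.43% of all probe sets passed in either direction. The called gene, the homeodomain factor Lhx2, rose to 11.46 ± 0.03 in H2be-GF (SD, n = 4), against 11.09 ± 0.06 in WT (SD, n = 6). Its change was 0.37 (SE 0.06, adjusted p in limma of 0.0425). The next smallest p of that list belonged to Ebf1, an EBF factor of olfactory neurons, with a change of 0.14 (SE 0.06, adjusted p in limma of 0.576). Ebf3 followed, also with a change of 0.14 (SE 0.06, adjusted p in limma of 0.581). Of 15 genes of receptor trafficking and odor transduction none was called, and the channel subunits Cnga4 and Cnga2 had changes of -0.13 (SE 0.06) and -0.12 (SE 0.05). Their part in the receptor levels was not tested.

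Among markers of other cells of the tissue, the array means of H2be-GF and WT overlapped for neuronal precursors, sustentacular cells, basal cells, ensheathing cells, glands, pigment cells and muscle. For the 5 markers of respiratory ciliated cells they also overlapped, though narrowly, at 9.34 to 9.45 in H2be-GF and 9.44 to 9.64 in WT. Of these 5 markers 3 were lower at an unadjusted p below 0.05 and none was called. That limit was passed by 8.43% of all probe sets tested in either direction. Of the 5 pigment cell genes 1 was called, Mitf, where 0.0862% of all probe sets tested were called. Mitf measured 8.32 ± 0.06 in H2be-GF (SD, n = 4), against 7.77 ± 0.11 in WT (SD, n = 6). The array mean of that list was 6.73 to 6.85 in H2be-GF and 6.5 to 6.92 in WT. Their part in the receptor levels was not tested.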

How the data were processed

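Whole MOE RNA was measured on Mouse Gene 1.0 ST arrays (Affymetrix). The authors looked for outlying arrays with arrayQualityMetrics, normalized scans by sketch quantiles and summarised probe sets by IterPLIER with Expression Console. They deposited log2 values, which run from 0 to 14.2. Tool versions and genome build are not given in the sources used here. Quantile normalization hides a change shared by most genes, and IterPLIER makes dim probe sets less certain. Arrays have no read depth, and their number limits the precision. The labels do not say whether the animals of different pools were unrelated, and p-values therefore describe spread among pools only.

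Of 35556 probe sets, 21789 had 1 symbol in the platform annotation, and only these name a gene. All members matched the RefSeq gene table by Entrez ID; it served for names, order and families. The 23194 probe sets with a symbol and a mean above 5 were fitted with limma 3.58.1 in R 4.3.3 (no covariate, two-sided), with Benjamini-Hochberg adjustment over these, and over receptors with a mean above 7 after the study's methods. The procedure was first tested on simulated data. Members, gene lists and tests were chosen with earlier results of these data known. Genes named are those called, those without overlap, the 6 largest changes each way among members with a mean above 7, the 4 brightest and 3 dimmest, and the first and last in gene order. Other members and the neighbours of Olfr183 were named after their values were seen. Alternatives were another normalization or centring, a constant of 16 added before log2, other filters, a trended robust variance, array weights, the Xist set, a replicate block and leaving out each array.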

Additional observations from a re-analysis of the deposited data

Results flagged for a closer look

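Olfr172, of family MOR184, measured 7.18 on WT replicate 6, below the other WT arrays at 7.52 to 7.69. A gap of this size relative to the range of its group flags about 1 group in 20 by chance, and it was the only one among 62 groups examined. The gene's change between H2be-GF and WT was 0.06 (SE 0.11).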

How the results depend on the processing

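The count of members called over receptors in either direction, 1 in the fit reported, was 1 under a second quantile normalization, both centrings, the added constant, array weights, the Xist set as covariate, and other filters. It was 0 in the arrays high in Xist alone and in the others alone (5 arrays each), and ran from 0 to 2 when 1 array was left out. It was 0 without H2be-GF replicate 2 and 2 without WT replicate 2, when Olfr206 was called higher (0.31) beside Olfr183 lower. With a trended robust variance 2 members were called over receptors, Olfr183 and Olfr167 (0.23, adjusted p in limma of 0.0321), and 1 over all probe sets, Olfr183, against 0 in the fit reported. With the replicate number as a block 0 members were called, and the median change was -0.01 with 13 members higher and 14 lower. The difference of Olfr183 was then -0.44 (adjusted p in limma of 0.0853). WT replicates 5 and 6 have no H2be-GF array of their number, so differences in this fit rest on replicates 1 to 4. For replicate 3, the H2be-GF array was low in Xist and the WT array high. Deviations of samples with the same number correlated at 0.53, 0.22, -0.42 and 0.26. The highest correlations with a sample of another number were 0.445, 0.348, 0.503 and 0.405. So few correlations cannot settle whether the numbers pair the samples. The change of Olfr183 lay between -0.64 and -0.44 over 22 alternatives and passed the test in 18, with adjusted p from 1.83e-07 to 0.292. It did not pass without H2be-GF replicate 2, in either Xist set alone, or with the block. Its differences from Olfr181 and Olfr186, added after seeing the data, ran from -0.89 to -0.61 and from -0.73 to -0.55 when 1 array was left out. The causes were not tested.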
